A study of Mus musculus with 576 samples.

Results

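Genes best known from the liver were measured in single epithelial cells of the mouse embryonic pancreas. The 10 genes are Serpina1c, Serpina1e, Serpina6, Vtn, Gc, Habp2, Ttr, Rbp4, Gulo and Ugt2b34, out of 36658 gene identifiers in each count table, and each was found in all 3 tables under 1 identifier. They were chosen by their level, as genes seen to lead in epithelial cells of these same libraries, so their high level in epithelium over mesenchyme is how they were chosen and is described below without a test. The tables hold 576 Smart-seq2 libraries, each made from 1 GFP+ cell sorted from the dorsal pancreas at E12.5 (mouse embryos, C57BL/6J background, both sexes mixed), with 2 plates of 96 wells for each of 3 lines. Prox1-GFP embryos carry GFP on a bacterial artificial chromosome under the control of Prox1, a transcription factor gene used by the epithelium of liver and pancreas. Nkx2.5-Cre;mTmG and Nkx3.2-Cre;mTmG embryos switch from membrane Tomato to GFP in cells that have expressed the Cre driver and in the descendants of those cells. No line received a treatment. Since no label ties a cell to an embryo or a litter, a line counts as 1 sample, its cells do not replicate a condition, and neither a test nor a p-value was computed.

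In the liver, hepatocytes release carrier proteins, protease inhibitors and clotting factors into the blood. Liver and pancreas both form from foregut endoderm and share transcription factors such as those of the HNF4 and FOXA families. In the embryonic pancreas, Cpa1 (carboxypeptidase A1) marks the tips of the branching epithelium, Neurog3 marks progenitors of endocrine cells, and Chga (chromogranin A) marks the endocrine cells that come from them, of which the glucagon cells carrying Gcg are the first to be abundant. Serpina1c and Serpina1e are 2 of the mouse copies of alpha-1 antitrypsin, an inhibitor of serine proteases such as neutrophil elastase. Serpina6 is corticosteroid-binding globulin, Gc is the vitamin D-binding protein, Ttr (transthyretin) carries thyroid hormone and Rbp4 carries retinol, the latter pair forming 1 complex in blood. Vtn (vitronectin) is an adhesive protein of blood and matrix that binds integrins, and Habp2 is a hyaluronan-binding serine protease. Gulo makes the last step of vitamin C synthesis and Ugt2b34 couples glucuronic acid to small molecules. Gulo and Ugt2b34 are enzymes of the endoplasmic reticulum and not secreted, so the name of secreted genes applies to 8 of the 10.

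Of the 576 cells, 549 passed the filters of the study's methods, among them all but 7 of the Prox1-GFP line. Passing cells of that line held 224814 to 1256784 counts, with a median of 808006 counts and 6993 genes. Epithelial cells were taken as Prox1-GFP cells with Epcam, an epithelial adhesion gene, at 20 CPM (a gene's share of the counts, scaled to 1000000) or more, which gave 59 cells on plate 8A and 49 on plate 8B. The value of Epcam was 3.67 CPM in the highest cell below the boundary and 30.3 CPM in the lowest cell above it. Chga at 20 CPM or more set apart 18 cells, with 2.90 CPM just below the boundary and 163.9 CPM just above it. Neurog3 at 20 CPM or more without Chga set apart 18 further cells, with 0 CPM just below and 21.5 CPM just above. The remaining 72 cells were split by Cpa1 at 100 CPM into 50 Cpa1-high and 22 Cpa1-low cells, with 73.6 CPM just below the boundary and 120.6 CPM just above it. Here 10 of the 72 cells lay within 2-fold of the boundary, so this split is a range and not a clean division. The background is 74 mesenchymal Prox1-GFP cells of the same plates, without Epcam and Upk3b and with Col3a1.

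The label of pancreatic epithelium was checked against markers. In the epithelial cells the keratin gene Krt8 was at 1062 CPM, the cadherin gene Cdh1 at 320.3 CPM, Sox9 at 573.4 CPM and Pdx1, the defining factor of the pancreas, at 116.9 CPM with detection in 76.9% of cells. The gut and stomach markers Cdx1, Cdx2 and Sox2 were listed at 0. Of 6 hepatoblast markers, Ahsg was listed at 0 in every epithelial cell, Alb was above 0 in 8 cells, Apoa1 in 13, Apoa2 in 21, Fgb in 23 and Afp in 66. Among the 18 Chga cells, Alb was above 0 in 4, Apoa1 in 7, Apoa2 in 11, Fgb in 12 and Afp in 9. Of the 5 markers other than Ahsg, 4 or more were held by 5 epithelial cells. Whether any cell came from the liver was not tested. Against the label, 3 epithelial cells carried the mesenchymal collagen Col3a1 at 100 CPM or more. In 2 of them, both Cpa1-low, Krt8, Cdh1, Sox9 and Pdx1 were at 0, Col3a1 was at 1021 CPM and 380.7 CPM and none of the 10 genes was detected. They are epithelial by the Epcam rule alone. In the detection, medians and ranges of Cpa1-low cells they are kept, with each of the 10 genes at 0. Ratios without all 3 cells are given where they matter. A further 3 passing Prox1-GFP cells fell in no group. In 1 of them, on plate 8A, Epcam was at 0 but Krt8 was at 3011 CPM, Cdh1 at 189.97 CPM, Pdx1 at 271.2 CPM, Cpa1 at 697.0 CPM and Chga at 2865 CPM, and 5 of the 10 genes were detected, so the Epcam rule left out a cell with epithelial markers. The other 2 held none of the 10 genes.

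The genes lie on 6 chromosomes (GENCODE M21, GRCm38). Serpina6 (chr12:103646630-103657212), Serpina1c (chr12:103894926-103904887) and Serpina1e (chr12:103946931-103958975) lie on the minus strand of the same serpin cluster. Gc (chr5:89417522-89457898) and Ugt2b34 (chr5:86889767-86906937) lie on the minus strand of chromosome 5, and Rbp4 (chr19:38116629-38125281, minus strand) and Habp2 (chr19:56287137-56320822, plus strand) on chromosome 19. Vtn lies at chr11:78499091-78502324 (plus strand) and Gulo at chr14:65986786-66009207 (minus strand), and the place of Ttr is given with its values. Habp2 overlaps Nrap on the opposite strand, and Nrap held 0.133 CPM in epithelial cells. Serpina1c overlaps an antisense gene, whose level was not analysed here, and the library method does not mark strand.

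Alpha-1 antitrypsin has 5 copies in this cluster, and their main transcripts were 94.8% to 97.6% identical over the aligned bases. Of all stretches of 31 bases in the Serpina1c transcript, 14.2% occurred in no other gene, against 44.7% for Serpina1e, 91.5% for Habp2, 97.03% for Ugt2b34 and 100% for the other 6 genes. How an estimated count is shared between the copies therefore rests on few bases, and the values of Serpina1c and Serpina1e are uncertain in a way that those of the other 8 are not. The stretch of 75 coding bases in which these copies differ most, by 13 bases, is shown because it holds the densest run of the bases that tell their reads apart (45 bases differ over 1282 aligned). It lies in exon 5 of 5, at coding bases 1118 to 1192 of 1239 in both genes, where the protein has the reactive centre loop that binds a protease. It was read from GENCODE M21 transcripts, on the minus strand at chr12:103895062-103895136 for Serpina1c and at chr12:103947068-103947142 for Serpina1e. Capitals mark the bases that differ.
Serpina1c: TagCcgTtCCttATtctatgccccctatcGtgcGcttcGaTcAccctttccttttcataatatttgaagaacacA
Serpina1e: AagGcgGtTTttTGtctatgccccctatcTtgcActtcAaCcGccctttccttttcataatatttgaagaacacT

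RefSeq (GRCm38.p6) gave promoter windows for 7 of the 10 genes, each of them the 250 bases before an annotated start. The letters of forkhead, HNF4 and E-box elements were searched on both strands. The forkhead letters TGTTTAC, found in 3.17% of 32851 windows, occurred in 1 of the 7 genes, Rbp4, in the window of 1 of its 2 annotated starts. The match was on the opposite strand and centred 238 bases before that start. The letters CAAAGTCCA and CAAAGGTCA of HNF4 elements, found in 0.384% and 0.426% of windows, occurred in none of the 7. The E-box letters CACCTG, found in 17.2% of windows, occurred in Serpina1c and Vtn. A match is a description of letters and does not show that a factor binds. The windows of Serpina1c and Serpina1e were 95.5% identical over 199 aligned bases. The window of Rbp4 with the forkhead match is shown because Rbp4 is 1 of the 2 genes that were highest in Chga cells, 5′ to 3′ in the direction of the gene and with the match in capitals.
Rbp4, chr19:38125322-38125571, minus strand: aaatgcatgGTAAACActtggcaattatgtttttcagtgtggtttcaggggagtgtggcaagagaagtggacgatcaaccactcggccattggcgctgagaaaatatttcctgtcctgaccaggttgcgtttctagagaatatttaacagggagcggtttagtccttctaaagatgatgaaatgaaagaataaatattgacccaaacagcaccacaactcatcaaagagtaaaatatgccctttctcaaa

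Against mesenchyme the 10 genes were close to all or nothing. In epithelial cells their levels, as CPM of counts summed over the cells, ran from 82.7 CPM for Gulo to 1958 CPM for Ttr. In the 74 mesenchymal cells Serpina1e had no count, 7 of the others had at most 2 counts in all (at most 0.0353 CPM), Rbp4 had 50 counts in 3 cells (0.884 CPM) and Gulo had 68 counts in 1 cell (1.20 CPM). All 10 were past 4-fold on both plates, beside 13.1% of the 15234 genes tested, and none was lower, beside 8.32%. Nothing is read from this because the genes were chosen for it. No mesenchymal Prox1-GFP cell held more than 1 of the 10, and 63 of 74 held none. The same was seen in the other lines, where all but 3 of the mesenchymal Nkx2.5-Cre;mTmG cells and all but 1 of the mesenchymal Nkx3.2-Cre;mTmG cells held none. In single cells of the mesenchymal Prox1-GFP group Rbp4 reached 59.6 CPM and Gulo 78.9 CPM, and the source of these counts was not tested. Gcg, which glucagon cells of the same plates held at up to 141047 CPM, was at 0.265 CPM in mesenchymal cells.

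Epithelial cells held most of the genes at once. The median Cpa1-high cell held 9 of the 10 and 20 of 50 such cells held all of them. The median was 8 in Cpa1-low cells, 7 in Neurog3 cells and 4.5 in Chga cells, of which none held more than 6. Thinning every cell to 100000 counts gave medians of 9, 7, 7 and 4, so depth changed this little. Together the 10 genes took 0.455% of the counts in Cpa1-high cells, 0.330% in Cpa1-low cells, 0.441% in Neurog3 cells and 1.53% in Chga cells, with 6.37% in the highest Chga cell. Most of the share in Chga cells was Ttr at 10256 CPM and Rbp4 at 4325 CPM, and the highest cell held Ttr at 61092 CPM. Of the 10 genes, 7 were lower in Chga than in Cpa1-low cells.

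**Figure D1:**
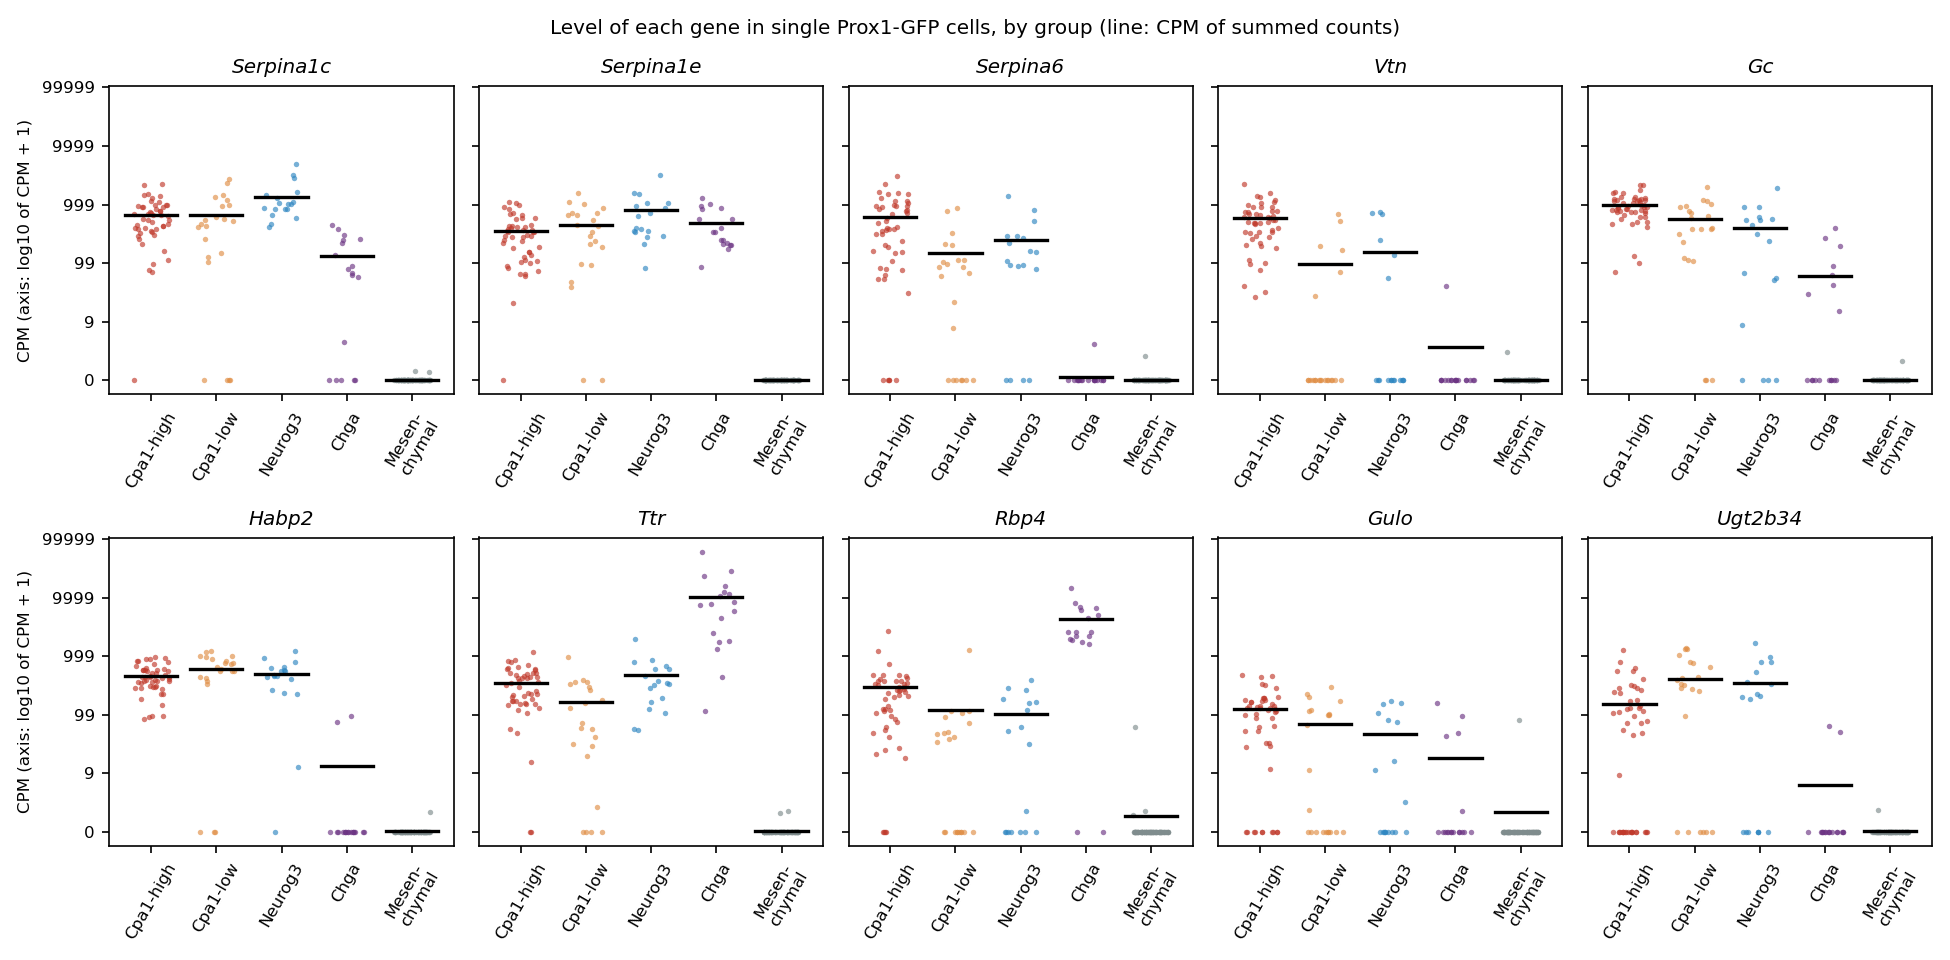
Each point is 1 cell, and the vertical axis is CPM drawn as log10 of CPM + 1. Groups are Cpa1-high (50 cells), Cpa1-low (22), Neurog3 (18), Chga (18) and mesenchymal Prox1-GFP cells (74), and the line is the CPM of counts summed over the group. Serpina6, Vtn, Habp2 and Ugt2b34 drop to 0 in most Chga cells, while Ttr and Rbp4 are highest there and Serpina1e was detected in at least 90.9% of cells of each of the 4 epithelial groups.

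**Figure D2:**
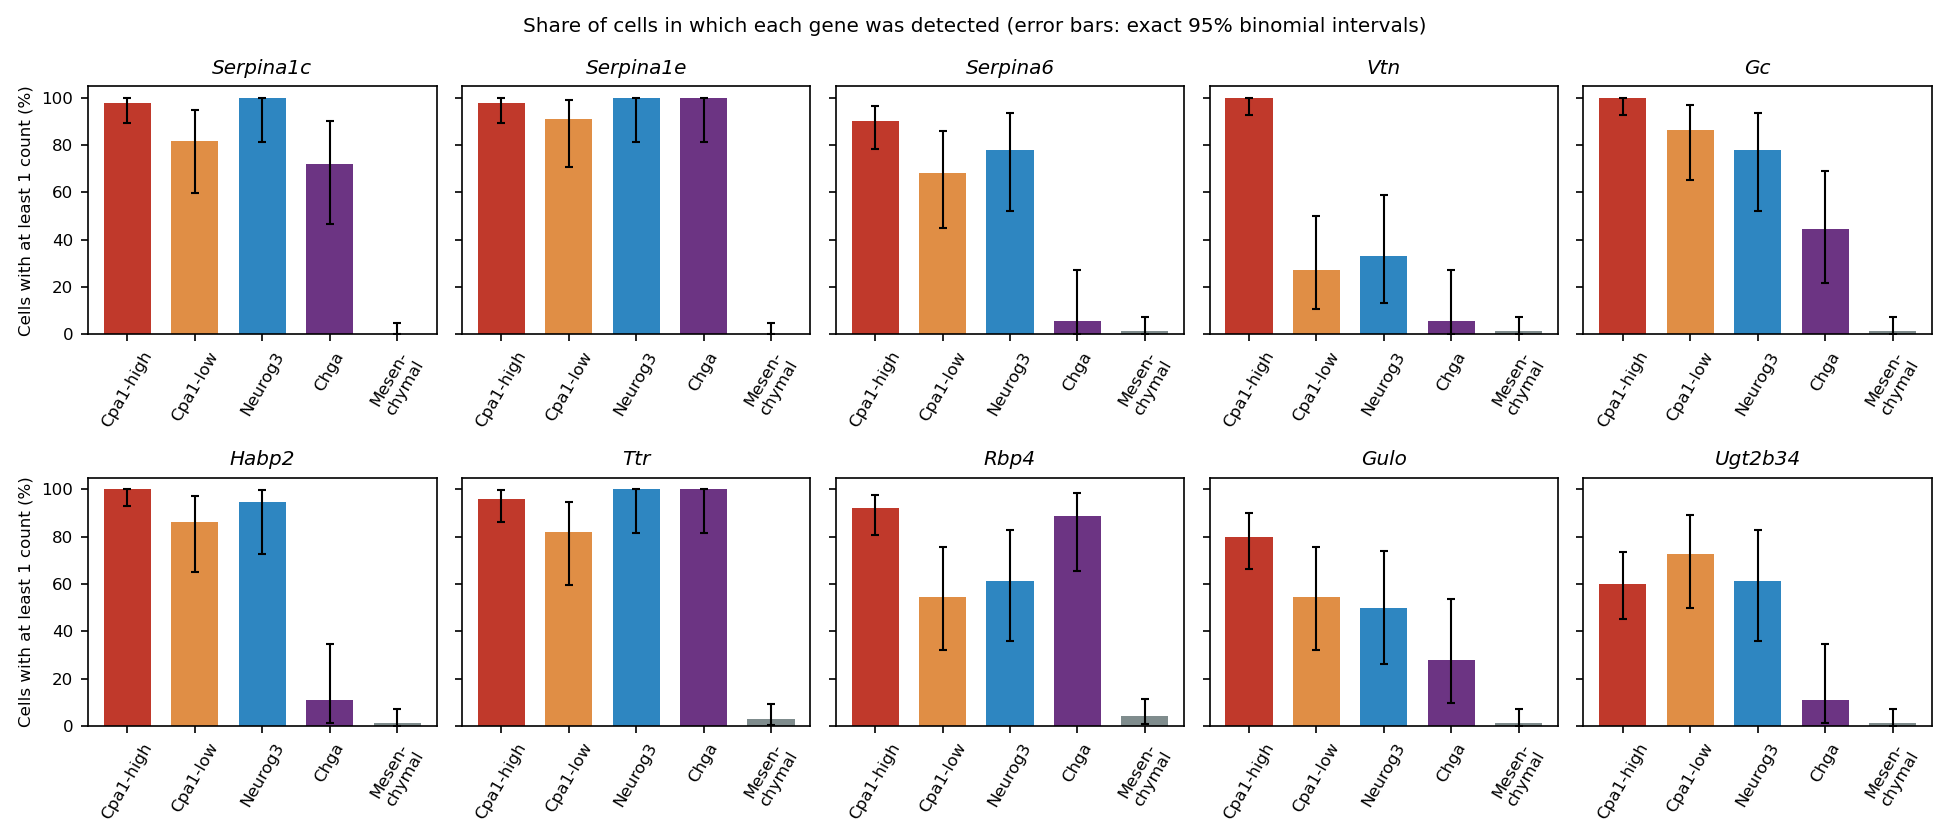
Bars give the percent of cells with at least 1 count of each gene in the same 5 groups, with exact 95% binomial intervals that cover counting error only. Vtn was detected in 100% of Cpa1-high cells and 27.3% of Cpa1-low cells.

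Per kb of transcript, which allows genes to be compared, the order of the levels differed between groups. In Cpa1-high cells Gc led with 536.6 CPM per kb, before Serpina1c at 492.1, Serpina6 at 376.5, Vtn at 337.3, Ttr at 291.5, Rbp4 at 256.2, Serpina1e at 224.6 and Habp2 at 161.1 CPM per kb. The enzymes Gulo (53.9 CPM per kb) and Ugt2b34 (35.1) came last. In this order the values of plates 8A and 8B overlapped between Gc and Serpina1c, Serpina6 and Vtn, Ttr and Rbp4, and Rbp4 and Serpina1e, so these neighbours did not differ beyond the spread between plates. In Neurog3 cells Serpina1c led with 1006 CPM per kb before Serpina1e at 505.1 CPM per kb, and the plates did not overlap between them. In Chga cells Ttr was at 8647 CPM per kb and Rbp4 at 3725, far above Serpina1e at 309.3 CPM per kb, and the lowest was Serpina6 at 0.0831 CPM per kb. Lengths are those of the longest transcript of each gene.

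Within the epithelium without endocrine genes, the question was which of the 10 go with Cpa1. Vtn and Serpina6 were higher in Cpa1-high than in Cpa1-low cells by several fold, Ttr and Rbp4 by 2 to 3 fold, and Ugt2b34 was lower. Past 2-fold with the same side on both plates were 4 genes higher (9.57% of 14192 genes tested were) and 1 lower (12.4% of all genes). The median log2 ratio of the 10 was 0.78, beside -0.05 over all genes tested. The other 5 genes stayed under 2-fold. Intervals of these ratios are exact to counting error only, and the spread between plates was far wider.

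Vtn, the integrin-binding glycoprotein, was detected in 50 of 50 Cpa1-high cells, from 25.5 to 2281 CPM with a median of 509.3 CPM. In Cpa1-low cells it was detected in 6 of 22 (27.3%, exact 95% interval 10.7% to 50.2%), with a median of 0 and a highest value of 683.5 CPM. The ranges overlapped. Of the 22 Cpa1-low cells 16 were at 0, among them those epithelial by Epcam alone, and no Cpa1-high cell was at 0. Its level was 588.2 CPM against 97.5 CPM, a ratio of 6.03 (5.75 to 6.33), with 33.3 on plate 8A and 3.18 on plate 8B. It was 9.77 without the highest cell of each group, 48.9 with the Cpa1 boundary at 20 CPM and 2.42 with it at 500 CPM.

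Serpina6, which binds cortisol and corticosterone, had a median of 392.2 CPM in Cpa1-high cells (0 to 3073) and of 75.7 CPM in Cpa1-low cells (0 to 858.0). It was detected in 90% and 68.2% of these cells, and the ranges overlapped. The ratio of levels was 3.99 (3.84 to 4.16), with 9.84 on plate 8A and 2.22 on plate 8B. Gc, the vitamin D carrier, was less marked in ratio but was also in every Cpa1-high cell, from 69.6 to 2179 CPM with a median of 916.0. In Cpa1-low cells it reached from 0 to 2005 CPM with a median of 387.2, and the ratio of levels was 1.69, with 1.99 and 1.48 on the plates.

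The retinol and thyroid hormone carriers were also higher with Cpa1. Rbp4 was at 297.4 CPM in Cpa1-high cells (92% detected, median 227.3 CPM) and at 118.7 CPM in Cpa1-low cells (54.5% detected, median 35.2 CPM). The Cpa1-low level rested on 1 cell with 1274 CPM, and without the highest cell of each group the ratio was 6.31 in place of 2.51. It was 7.05 on plate 8A alone and 1.90 on plate 8B alone, the latter under 2-fold. With the Cpa1 boundary at 20 CPM it was 10.4, and at 500 CPM it was 1.19, under 2-fold. Ttr was at 345.8 CPM against 163.4 CPM, with medians of 308.4 and 64.6 CPM, and its ratio of 2.12 became 1.93 without the cells that carried Col3a1, 1.76 on plate 8B alone, 1.95 and 1.63 with the Cpa1 boundary at 20 and 500 CPM, and 1.71 with the Neurog3 and Chga boundary at 100 CPM.

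Ugt2b34, the glucuronosyltransferase, went the other way. It had a median of 71.3 CPM in Cpa1-high cells (0 to 1259) and of 327.3 CPM in Cpa1-low cells (0 to 1367), and levels of 151.5 and 398.9 CPM. The ratio was 0.380 (0.367 to 0.393), with 0.305 on plate 8A and 0.442 on plate 8B. The protease gene Habp2 was in every Cpa1-high cell (84.2 to 952.4 CPM, median 425.7) and in 19 of 22 Cpa1-low cells (0 to 1239 CPM, median 626.0). Its ratio was 0.740, but 0.546 on plate 8A and 1.08 on plate 8B, so the plates did not give 1 direction.

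The alpha-1 antitrypsin copies and Gulo were under 2-fold. Serpina1c was at 669.7 CPM in Cpa1-high cells and 666.9 CPM in Cpa1-low cells, a ratio of 1.004 (0.983 to 1.03), and Serpina1e was at 353.7 and 446.4 CPM, a ratio of 0.792. Gulo, the vitamin C enzyme, was detected in 80% of Cpa1-high and 54.5% of Cpa1-low cells at 121.9 and 69.7 CPM. Its ratio of 1.75 was 2.09 on plate 8A and 1.43 on plate 8B, and it was past 2-fold with the Cpa1 boundary at 20 CPM (2.49) and without the highest cell of each group (2.12). When the 3 cells with Col3a1 were left out, 4 genes passed in place of 5, with Ttr under 2-fold. The ratio was then 5.46 for Vtn, 3.62 for Serpina6, 2.28 for Rbp4, 0.674 for Habp2 and 0.348 for Ugt2b34.

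**Figure D3:**
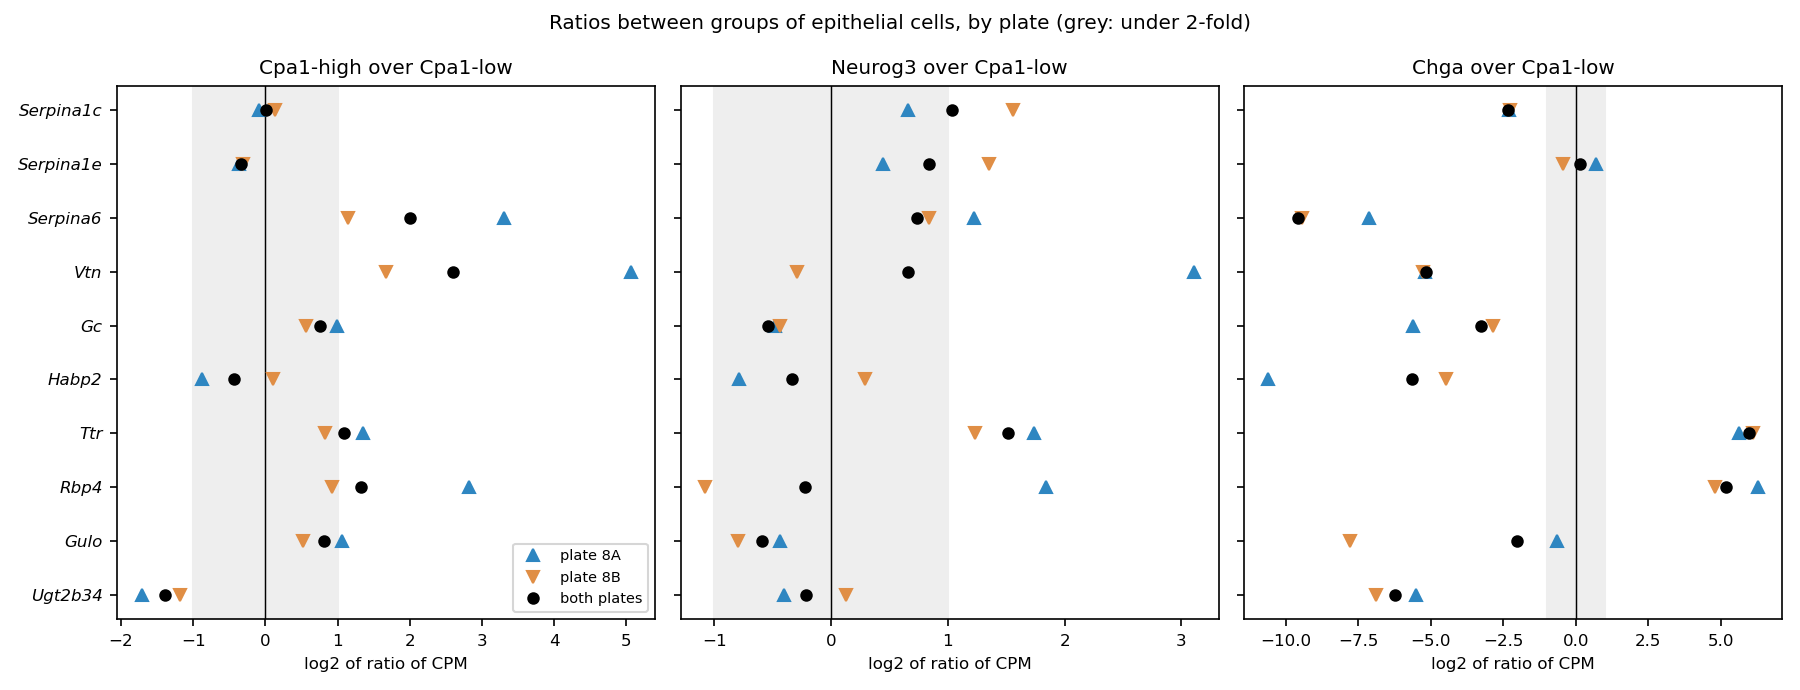
For each gene, log2 of the ratio of CPM between 2 groups of epithelial cells is drawn for plate 8A, plate 8B and both plates, with the range under 2-fold in grey and a group at 3 counts or fewer set to 3 counts. The 3 panels have different horizontal scales. Vtn, Serpina6 and Rbp4 in Cpa1-high cells lie on 1 side on both plates but far apart, and Rbp4 in Neurog3 cells lies on opposite sides.

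In Neurog3 cells, the progenitors of endocrine cells, 2 of the 10 genes were past 2-fold from Cpa1-low cells, and which ones were depended on the group boundaries. Serpina1c and Ttr were past 2-fold higher on the same side of both plates (13.8% of 14245 genes tested were) and no gene was past 2-fold lower (13.1% of all genes), so the count of 2 of 10 lies near the background. The median log2 ratio of the 10 was 0.22, beside -0.01 over all genes tested. Serpina1c was detected in 18 of 18 Neurog3 cells, from 417.1 to 4944 CPM with a median of 1033 CPM, and in 18 of 22 Cpa1-low cells, from 0 to 2734 CPM with a median of 499.0. The groups overlapped, and the ratio of levels was 2.05 (2.01 to 2.10), with 1.57 on plate 8A and 2.94 on plate 8B. The 2-fold call was lost without the cells that carried Col3a1 (1.85) and with Epcam at 100 CPM or more (1.96). It was also lost with cells thinned to 100000 counts (1.91) and with the Cpa1 boundary at 20 CPM (1.78).

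Ttr was in 18 of 18 Neurog3 cells, from 52.9 to 1945 CPM with a median of 343.9 CPM, and its level of 466.8 CPM was 2.86 times that of Cpa1-low cells, with 3.34 and 2.34 on the plates. Serpina1e had a ratio of 1.78, with 1.36 and 2.56 on the plates. For 4 genes the plates went in opposite directions, namely Vtn (8.63 on 8A, 0.815 on 8B), Rbp4 (3.59 and 0.473), Habp2 (0.579 and 1.22) and Ugt2b34 (0.757 and 1.09). Plate 8B held only 6 of the Neurog3 cells. Gc (0.688, with 0.716 and 0.738 on the plates), Gulo (0.664, with 0.736 and 0.575) and Serpina6 (1.66, with 2.33 and 1.78) were under 2-fold in counts summed over the plates. Plates 8A and 8B held 12 and 6 Neurog3 cells but 12 and 10 Cpa1-low cells. With such unlike shares a summed ratio can lie outside both plate values, as for Gc and Serpina6. Serpina6 was at 2.38 with the Cpa1 boundary at 20 CPM, Gulo at 0.454 with it at 500 CPM and Gc at 0.372 with the Neurog3 and Chga boundary at 100 CPM, each past 2-fold. That last boundary also gave Ugt2b34 at 0.238 in place of 0.861 and Serpina1e at 2.83, which was 2.11 with the Cpa1 boundary at 500 CPM. Vtn was at 13.1 with the Cpa1 boundary at 20 CPM, 0.547 with it at 500 CPM and 0.457 with the Neurog3 and Chga boundary at 100 CPM, in place of 1.58. Rbp4 was at 3.41, 0.445 and 0.370 under these settings, in place of 0.855. Without the highest cell of each group Vtn was at 2.04 and Rbp4 at 2.13. Neither gene thus had a stable direction.

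The Chga cells differed most. In them Ttr and Rbp4 were far higher than in Cpa1-low cells, 7 genes were lower and Serpina1e alone stayed under 2-fold. Past 2-fold on the same side of both plates were 2 genes higher (23.6% of 15147 genes tested were) and 7 lower (21% of all genes). The median log2 ratio of the 10 was -2.80, beside -0.07 over all genes tested. All genes are not an even reference here, because Chga cells were few in the pool by which the 10 were chosen. Without the 3 cells that carried Col3a1 the count of 9 was the same.

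Ttr lies on the plus strand of chromosome 18, at chr18:20665280-20674321. It was in every Chga cell, from 114.8 to 61092 CPM with a median of 7649 CPM. In Cpa1-low cells it ran from 0 to 952.1 CPM, so the ranges overlapped only through the lowest Chga cells. The level was 10256 CPM against 163.4 CPM, a ratio of 62.8 (60.5 to 65.1), with 49.5 on plate 8A and 68.2 on plate 8B. Rbp4, its partner in blood, was in 16 of 18 Chga cells, from 0 to 14621 CPM with a median of 2591 CPM. Its level of 4325 CPM was 36.4 times that of Cpa1-low cells (34.9 to 38.1), with 76.7 and 27.5 on the plates and 92.7 without the highest cell of each group. With the Cpa1 boundary at 20 CPM it was 145.6, and with it at 500 CPM it was 18.96.

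These high values went with glucagon. In 14 of the 18 Chga cells Gcg was at 7536 CPM or more, and in the other 4 it was at 0. Those 14 cells held Ttr from 1331 to 61092 CPM (median 9450) and Rbp4 from 1630 to 14621 CPM (median 3518). The 4 cells without Gcg held Ttr from 114.8 to 2467 CPM, and Rbp4 at 0 in 2 cells and at 1771 and 2588 CPM in the others. Serpina1c, in contrast, was in all 4 of these cells, from 67.4 to 448.7 CPM, and in 9 of the 14 with Gcg, from 0 to 298.8 CPM. The hepatoblast marker Afp was above 0 in 9 of the 14 cells with Gcg and in 0 of the 4 without. For the marker Fgb these were 11 of 14 and 1 of 4. This split was drawn after the values had been seen, and 4 cells are too few to weigh it. Insulin genes were low in these cells, with Ins1 at most 1305 CPM and Ins2 at most 1196 CPM.

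Serpina6 was barely detected in Chga cells, with 1 cell of 18 at 3.1 CPM and the others at 0, and a summed level of 0.133 CPM (exact 95% interval 0.0162 to 0.482) against 151.3 CPM in Cpa1-low cells. Vtn was also in 1 of 18 cells, at 39.5 CPM. Habp2 was in 2 of 18 cells, with 93.5 CPM as the highest, and Ugt2b34 in 2 of 18, with 62.2 CPM as the highest. The ratio of levels was 0.0280 for Vtn, but at most 0.00376 without the highest cell of each group, which left no count in Chga cells (set to 3 counts), 0.233 with the Cpa1 boundary at 20 CPM and 0.00972 with it at 500 CPM. For Habp2 it was 0.0198, with at most 0.000646 on plate 8A (no count in Chga cells, set to 3), 0.0450 on plate 8B and 0.0105 without the highest cells. For Ugt2b34 it was 0.0134, with 0.0218 and 0.00848 on the plates and 0.00667 without the highest cells. These genes were thus present in most or many other epithelial cells and in few Chga cells, on both plates.

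Gc, Gulo and Serpina1c were lower without being lost. Gc was in 8 of 18 Chga cells, with a median of 0 and a highest value of 405.6 CPM, and its level of 59.5 CPM was 0.104 of that in Cpa1-low cells (0.0205 on plate 8A, 0.138 on plate 8B). Gulo was at 16.9 CPM in 5 of 18 cells, with a ratio of 0.243 that was 0.644 on plate 8A and 0.00451 on plate 8B (1 count, set to 3), so its call rests on plate 8B. Serpina1c was in 13 of 18 cells, with a median of 73.6 CPM and a highest value of 448.7 CPM, at 132.2 CPM against 666.9 CPM. Its ratio of 0.198 (0.189 to 0.208) was 0.201 and 0.208 on the plates.

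The paralogue that differs from Serpina1c by 13 of the 75 bases shown above did not follow it. Serpina1e was in 18 of 18 Chga cells, from 85.1 to 1282 CPM with a median of 335.5 CPM, and its level was 487.2 CPM, a ratio of 1.09 to Cpa1-low cells with 1.63 and 0.743 on the plates. Serpina1e was above Serpina1c in 18 of 18 Chga cells. Serpina1c was above Serpina1e in 44 of 50 Cpa1-high cells, in 17 of the 20 Cpa1-low cells with either gene and in 15 of 18 Neurog3 cells. The ratio of Serpina1c to Serpina1e was 1.89 in Cpa1-high, 1.49 in Cpa1-low and 1.72 in Neurog3 cells and 0.271 in Chga cells. The total over the 5 copies was 1631, 1750, 3122 and 1940 CPM in these groups, so that Serpina1c gave 41.1%, 38.1% and 43.9% of it in the first 3 and 6.81% in Chga cells. Serpina1a, Serpina1b and Serpina1d were at 336.1, 692.6 and 292.0 CPM in Chga cells, against 156.1, 381.5 and 99.04 CPM in Cpa1-low cells. The split between copies is the estimate of the authors' quantification and carries the uncertainty given above.

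**Figure D4:**
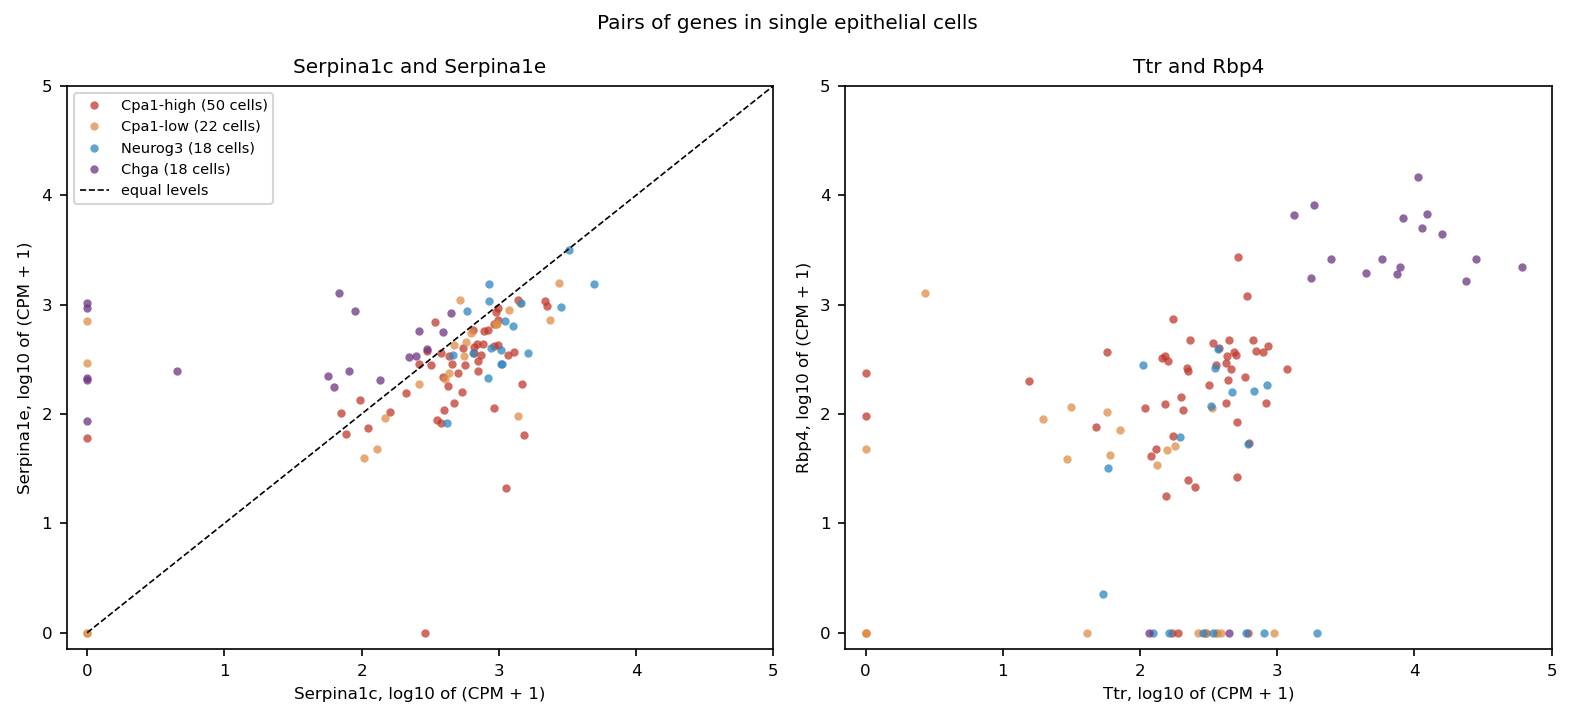
Each point is an epithelial cell, with log10 of CPM + 1 on both axes and colour by group. On the left, all 18 Chga cells lie above the dashed line of equal levels of Serpina1c and Serpina1e, and most other cells lie below it. On the right, Ttr and Rbp4 are both high in most Chga cells, and 2 Chga cells lie at 0 for Rbp4.

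Across cells, the 10 genes did not move as 1 set. Over the 45 pairs the Spearman rho across the epithelial cells, each thinned to 100000 counts, had a median of 0.09 and ran from -0.37 for Habp2 and Ttr to 0.65 for Serpina6 and Vtn. These are descriptions over cells of 1 sample, which share libraries, plates and groups. Vtn, Serpina6 and Gc went together (0.65, 0.61 and 0.62 for the 3 pairs) and with Cpa1 (0.83, 0.62 and 0.59). Habp2 went with Ugt2b34 (0.57), and Ttr with Rbp4 (0.50) and with Gcg (0.46). Without the 18 Chga cells, Ttr and Rbp4 were at 0.20 and Vtn and Rbp4 at 0.68, and the median over the 45 pairs was 0.14. Ttr and Gcg were then at -0.03 and Rbp4 and Gcg at -0.01. Within the 50 Cpa1-high cells the median was 0.16 and the highest pair was Serpina1c and Gc at 0.56. In these cells Serpina6 and Vtn were at 0.48, Serpina6 and Gc at 0.37 and Vtn and Gc at 0.33. With Cpa1 the values there were 0.39 for Vtn, 0.49 for Serpina6 and 0.24 for Gc.

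**Figure D5:**
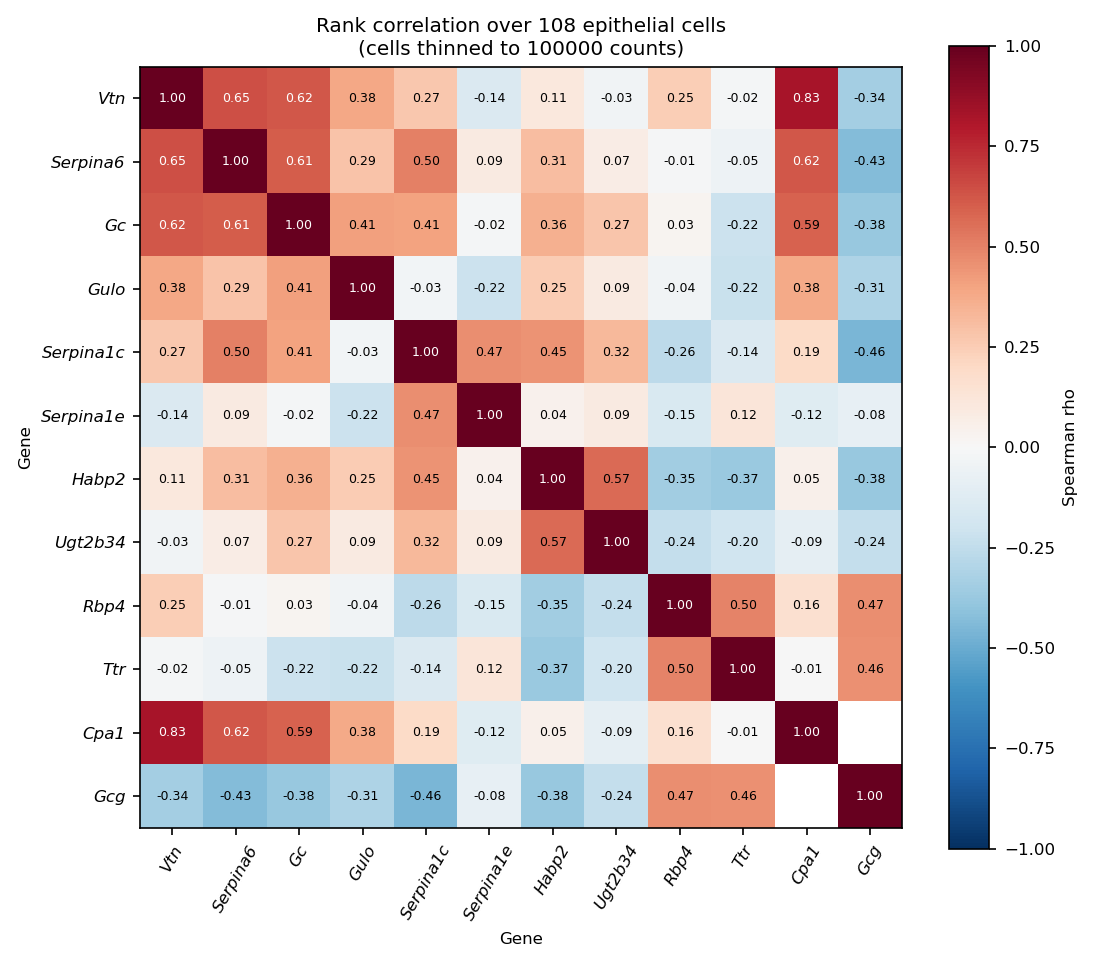
Spearman rho between the 10 genes, Cpa1 and Gcg over all epithelial cells, each thinned to 100000 counts, with red for positive and blue for negative values (the pair of Cpa1 and Gcg was not computed). Vtn, Serpina6 and Gc form a block with Cpa1, Habp2 pairs with Ugt2b34, and Ttr and Rbp4 pair with Gcg.

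The genes most like each member were taken as the 5 with the highest rho over the same cells, among genes detected in at least 10% of them. For Vtn they included Chst2 (0.86), P2rx1 (0.84), Cpa1 (0.83) and Pnliprp1 (0.80), the latter pair being a digestive enzyme gene and a relative of one. For Serpina6 they included Vtn (0.65), Chst2 (0.63), Cpa1 (0.62) and Myc (0.61), and for Gc they included Vtn (0.62), Chst2 (0.62), Serpina6 (0.61) and Rplp0 (0.60). Habp2 was nearest to Cldn3 and Spp1 (both 0.71), Smtnl2 (0.68), Sox9 (0.65) and Adamts1 (0.64), of which Sox9 is a factor of progenitor and duct cells. Ugt2b34 was also nearest to Spp1 (0.63), before Igsf11 (0.59), Anxa2, Notch2 and Adamts1 (each 0.58). Ttr was nearest to Irx2 (0.61), to the hormone genes Iapp (0.60) and Pyy (0.59), and to Resp18 (0.59) and Sez6l2 (0.58). Genes near Rbp4 were Ffar4 (0.62), Rab37 (0.59), Sez6l2 (0.57) and Irx2 (0.57). The values were lower for Serpina1e, whose nearest gene was Serpina1c (0.47), and for Gulo (0.56 with Olfr1388). Serpina1c was nearest to Gm8113 (0.66), Rps27 (0.59) and Rps19 (0.58). Within Cpa1-high cells alone 3 of these 50 neighbours were the same.

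The 10 genes are a selection, and a wider list of 51 liver genes shows what was left out of it. In epithelial cells 21 of the 51 were at 10 CPM or more, 20 were under 1 CPM and 8 of those were listed at 0 (Apoa4, Apoh, Ahsg, Fetub, Kng1, Hrg, Serpina3k and Serpina11). The highest were Ambp, a precursor of a protease inhibitor and a carrier, at 1140 CPM, the copy Serpina1b at 493.7 CPM, the iron carrier gene Trf at 201.7 CPM and Afp, the fetal relative of albumin, at 177.05 CPM. Alb itself was at 5.54 CPM. Against mesenchyme 27 of the 32 list genes tested were past 4-fold higher and 1 lower (Pros1), beside 13.1% and 8.32% of all genes. In Cpa1-high cells 8 of 29 were past 2-fold higher than in Cpa1-low cells and 3 lower, beside 9.57% and 12.4% of all genes. In Neurog3 cells 5 of 26 were higher and 4 lower, beside 13.8% and 13.1%, so these counts lie near the background. In Chga cells 22 of 34 were higher and 5 lower, beside 23.6% and 21% of all genes. A list gene entered these counts at 1 CPM or more in either group, so one that was under 1 CPM in the lower group could be called in 1 direction only. Among genes called higher these numbered 25 of 27 against mesenchyme, 4 of 8 in Cpa1-high, 2 of 5 in Neurog3 and 10 of 22 in Chga cells, and the counts are not set against those of the 10 genes. Afp was at 390.4 CPM in Chga cells and 103.9 CPM in Cpa1-low cells, and Fgb, a fibrinogen chain, at 199.5 and 22.6 CPM. Alb was at 17.7 CPM in Chga cells, where 4 of 18 held it, and at 0 in Cpa1-low and Neurog3 cells.

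Of 14 transcription factors of liver and foregut, 10 were at 10 CPM or more in epithelial cells, led by Prox1, whose control regions drive the reporter used in the sort, at 1419 CPM, Foxa2 at 124.6 CPM and Onecut1 at 115.4 CPM. Hnf4a was at 46.9 CPM, against 0 CPM in mesenchyme. The count past 4-fold higher than in mesenchyme was 12 of 13 tested, beside 13.1% of all genes, and 10 of these 12 were under 1 CPM in mesenchyme. In Chga cells 5 of 14 factors were past 2-fold higher than in Cpa1-low cells, among them Hnf4a, Hnf4g, Foxa1 and Foxa2, and 4 were lower (Onecut1, Nr5a2, Prox1 and Gata6), beside 23.6% and 21% of all genes. The higher level of some factors was not particular to Chga cells. Hnf4a was at 62.2 CPM in Chga, 103.2 CPM in Neurog3 and 38.7 CPM in Cpa1-high cells, against 10.4 CPM in Cpa1-low cells. Foxa3 was at 117.6 CPM in Neurog3, 37.4 CPM in Cpa1-high and 9.80 CPM in Chga cells, against 11.4 CPM in Cpa1-low cells. Hnf4g was at 3.42 CPM in Cpa1-high and 3.33 CPM in Chga cells and had no count in Neurog3 and Cpa1-low cells. In Cpa1-high cells 5 of 14 factors were past 2-fold higher and 2 lower, beside 9.57% and 12.4% of all genes, and in Neurog3 cells 2 of 13 were higher and 1 lower, beside 13.8% and 13.1%. Onecut1 was at 0.934 CPM in Chga cells and 151.7 CPM in Cpa1-low cells, and Foxa2 at 266.8 and 58.4 CPM. How far the factors account for the 10 genes was not tested.

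Known partners of the 10 were spread over both tissues. Stra6, the membrane receptor for the complex of retinol with Rbp4, was at 3.07 CPM in epithelial cells and 44.1 CPM in mesenchymal cells (36.5% detected). Of the integrin chains that can bind vitronectin, Itgav was at 21.8 and 39.1 CPM in the epithelium and the mesenchyme, Itgb5 at 16.01 and 67.5 CPM and Itgb3 at 0.276 and 0.124 CPM. Vdr, the vitamin D receptor, was at 45.5 CPM in Chga cells, in 4 of 18, and at 0.0555 CPM in Cpa1-low cells. Over the 20 partners, 5 of 16 tested were past 4-fold higher in epithelium, each under 1 CPM in mesenchyme, and 3 lower, beside 13.1% and 8.32% of all genes.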

How the data were processed

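GFP+ cells were sorted into plates, and Smart-seq2 libraries were sequenced without unique molecular identifiers, so PCR copies are counted as reads. The authors trimmed reads with Trim Galore 0.6.5 (submitters' processing notes), quantified them with kallisto on GRCm38 and summed transcripts to genes with tximport. The authors deposited 1 table per line, whose values are each a gene's estimated count in a cell, not normalized. Of values above 0, 36.0% were not whole (tolerance 1e-06). The release of the authors' annotation is not given in the sources used here. The paper's text gives 1 cell more for the Prox1-GFP line than is labelled.

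Cells were kept from 1000 genes and 100000 counts upwards, with mitochondrial counts of up to 30%. No doublet caller was run, no cells were clustered, and no column of cells is shared between tables. Symbols came from GENCODE M21, which matched 35866 of 36658 identifiers. Rows without a symbol held 0.605% of counts and stayed in the totals. Levels are CPM of summed counts with exact 95% Poisson intervals, and detection means at least 1 count, with exact 95% binomial intervals. Both intervals cover counting error only. In a ratio, a group with fewer than 3 counts was set to 3. A gene was tested at 1 CPM or more in either group and called past 4-fold (epithelium against mesenchyme) or 2-fold (within epithelium) with the same side on plates 8A and 8B. The 4-fold step alone was tried on simulated counts with planted changes, with counting error only and without the rule on plates. The 2-fold calls were not tried in this way. The comparisons against Cpa1-low cells share those cells. Python 3.11.15, numpy 2.4.6, pandas 2.3.3, scipy 1.17.1 and Biopython 1.88 were used.

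The 10 genes, the lists of liver genes, transcription factors and partners and the group boundaries were chosen with earlier results of these data known. By rule the text names the 10 genes, the 4 highest of each list and the 5 most similar genes, of which some are not reported here. Other list members, the split by Gcg and the cells with no member were named after their values had been seen.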

Additional observations from a re-analysis of the deposited data

How the results depend on the processing

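Over 18 other settings, each of the 376 values of a called gene kept its direction. Part of this was fixed in advance. A call required the same side on plates 8A and 8B, so the values of either plate alone could not reverse. The 376 also include the values against mesenchyme, for which the genes were chosen. The count of 10 genes past 4-fold in epithelium was 10 under each of the settings that bear on it, except 9 features with the Serpina1 copies summed. The Cpa1, Neurog3 and Chga boundaries do not enter that count. The count in Cpa1-high cells was 5, and it was 3 on plate 8B alone and 3 with the Cpa1 boundary at 500 CPM, 4 without the cells that carried Col3a1 and 4 with the Neurog3 and Chga boundary at 100 CPM, and 6 on plate 8A alone and 6 without the highest cells. The count in Neurog3 cells was 2 and was the least stable. It was 1 with Epcam at 100 CPM or more, 1 with cells thinned to 100000 counts, 1 without the cells that carried Col3a1 and 1 with the Serpina1 copies summed. It was 4 on plate 8A alone, 4 on plate 8B alone, 4 with the Cpa1 boundary at 20 CPM, 4 with it at 500 CPM, and 5 with the Neurog3 and Chga boundary at 100 CPM. The cause was not tested. The count in Chga cells was 9 and stayed at 8 or 9. Of the 50 most similar genes, 35 were shared with CPM that were not thinned and 3 with Cpa1-high cells alone. Liver list genes at 10 CPM or more numbered 21, and 17 to 23 under the other settings. No paired analysis was possible because the labels' replicate numbers only name cells, no animal is named and no test was run.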
